A study of Mus musculus with 12 samples.

Results

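The 10 genes described here, Cdkn1a, Mdm2, Ccng1, Phlda3, Zmat3, Trp53inp1, Fas, Bbc3, Bax and Pmaip1, are direct transcriptional targets of the tumor suppressor p53, out of 55901 genes in the table. They were selected by name from what is known of p53, with the results of all 3 comparisons, those of Fas and Bbc3 above all, already in view. Their levels are therefore given as a description. Where the fit across all genes called one of them, that is stated as part of the description and is no independent test, and p-values are given for other genes of the pathway alone. The lists of those other genes were also written with earlier results of these data known, so their counts are no independent test either. Each of the 10 passed the filter on low values, a mean of at least 0.5 FPKM (fragments scaled to the length of the gene and the size of the library) over the 12 libraries, as did 15016 genes in all. Fas passed through the injured groups, since its mean in Control was under 0.5.

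The libraries came from cortical neurons of C57BL/6J mice, isolated within 24 h of birth and cultured for 7 days before the experiment. All 3 groups of 4 libraries had been exposed to arabinosylcytosine, a blocker of DNA synthesis that limits the growth of glial cells. Control neurons were left intact. Trauma neurons were injured by scratching the culture and collected after 24 h, and neurons of the Trauma+TGF-β1 group (Tra_TGF in the labels) received 10 ng/mL TGF-β1 for 24 h on top of the scratch. The sources do not say whether the 4 libraries of a group came from separate cultures or animals, and the methods mention fewer sequenced samples than the libraries used here, a difference that could not be resolved. The errors and p-values below measure the spread between these libraries, which may be technical.

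p53 is a transcription factor that is held at a low level by the ubiquitin ligase Mdm2 and accumulates when DNA damage or other stress interrupts that control. Its targets fall into functions that can oppose each other. Some stop the cell cycle or feed back on p53 itself, while others, including the death receptor Fas and the BH3-only proteins encoded by Bbc3 (PUMA) and Pmaip1 (Noxa), promote apoptosis. In postmitotic neurons, p53 and PUMA are known for their part in death after DNA damage and injury.

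The reads assigned to genes numbered 15052486 to 17381671 in a library. Marker genes of neurons dominated the cultures, with a summed level of 1356 to 1423 FPKM over 8 markers in Control, led by Tubb3. The sum was 1214 to 1292 FPKM in Trauma and 1145 to 1185 with TGF-β1. Tubb3 made up most of it (mean 847 FPKM over the 12 libraries), and the list was split. Of the 8 neuron markers, 2 had a positive log2 fold change against Control in Trauma and 4 with TGF-β1. For 8 astrocyte markers, led by Aldoc over the 12 libraries, the sum lay at 206 to 236 FPKM in Control, 263 to 324 after the scratch and 278 to 299 after the scratch with TGF-β1. These markers did not move alike. Gfap had 43.1 to 52.6 FPKM in Control and 91.7 to 99.4 with TGF-β1, while Aldoc had 73.3 to 92.4 and 72.8 to 79.1. Against Control, 7 of the 8 had a positive log2 fold change with TGF-β1. In the same order, 8 microglia markers (4 of them with a mean of at least 0.5 FPKM, led by C1qa) took 15.5 to 19.0, 23.7 to 31.5 and 20.1 to 23.2 FPKM. Markers of the oligodendrocyte lineage (8 genes, led by Olig1) took 46.3 to 49.1, 57.5 to 64.7 and 56.9 to 63.4 FPKM, and endothelial and fibroblast markers (9 genes) at most 4.03 FPKM in any library. The first Control library was the least like the others of its group, with a highest Pearson r of 0.944 over genes with another Control library, against 0.955 to 0.958 for the other Control libraries. In a culture of mixed cells, more cells of a type and more RNA per cell cannot be told apart.

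Sequences upstream of the start site were looked up to show where p53 could bind close to these promoters. RefSeq windows of GRCm38, from 250 bases before to 50 bases after the start, were found for 7 of the 10 genes, and those of Fas, Bbc3, Bax, Mdm2, Ccng1, Cdkn1a and Phlda3 were searched for the p53 half-site consensus (10 bases: 3 purines, a C, 2 bases that are A or T, a G and 3 pyrimidines, which reads the same on both strands). The half-site stood in 8.36% of the 32851 windows, and in a window of each of Cdkn1a, Mdm2, Ccng1 and Bax. These are shown 5′ to 3′ on the strand of the gene, with the half-sites in capitals. None of the printed stretches overlaps an annotated exon of its gene.
Cdkn1a, plus strand, chr17:29090886-29090957: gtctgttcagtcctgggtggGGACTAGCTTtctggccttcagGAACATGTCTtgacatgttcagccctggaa
Mdm2, minus strand, chr10:117710915-117710964: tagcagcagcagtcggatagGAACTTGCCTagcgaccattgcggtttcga
Ccng1, minus strand, chr11:40755442-40755491: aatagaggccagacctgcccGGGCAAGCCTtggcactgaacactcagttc
Bax, minus strand, chr7:45467070-45467119: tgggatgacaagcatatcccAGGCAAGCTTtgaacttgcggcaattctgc

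Counting exact matches alone, only the Cdkn1a window at 29090729 to 29091028 held a pair of half-sites. They started 73 and 51 bases before the start and were 12 bases apart. In the printed stretch, GAACATGTCT is followed directly by tgacatgttc, which matches the consensus in all but its first base. Such near matches were not counted, so the pair marked here need not be the one that p53 binds. A second Cdkn1a window, for a start site farther downstream (29093519 to 29093818), held no half-site. A pair with at most 13 bases between its members stood in 0.0731% of all windows. The windows of Fas, Bbc3 and Phlda3 held no match, which says nothing of sites farther away. The windows of Bbc3 and Phlda3 were rich in G and C, at 74.7% to 78.0% for the 3 start sites of Bbc3 and 71.7% for Phlda3, against a median of 52.7% over all windows.

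The levels of the 10 genes in Control spanned a wide range. Bax was the most abundant, at 39.6 ± 5.90 FPKM (SD, n = 4 here and below), followed by Ccng1 at 25.2 ± 1.77, Zmat3 at 14.1 ± 0.0676, Bbc3 at 12.6 ± 2.13, Phlda3 at 9.69 ± 1.66, Cdkn1a at 7.90 ± 1.00, Mdm2 at 7.80 ± 0.363, Trp53inp1 at 3.64 ± 0.563, Pmaip1 at 2.15 ± 0.465 and Fas at 0.433 ± 0.10. The libraries of neighbours in this order overlapped from Zmat3 down to Mdm2, while Bax and Ccng1 above them and Trp53inp1, Pmaip1 and Fas below them did not overlap with their neighbours. Over the 12 libraries, the mean of Bax lay at the 91.2th percentile of the genes tested and that of Fas at the 14.4th.

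**Figure D1:**
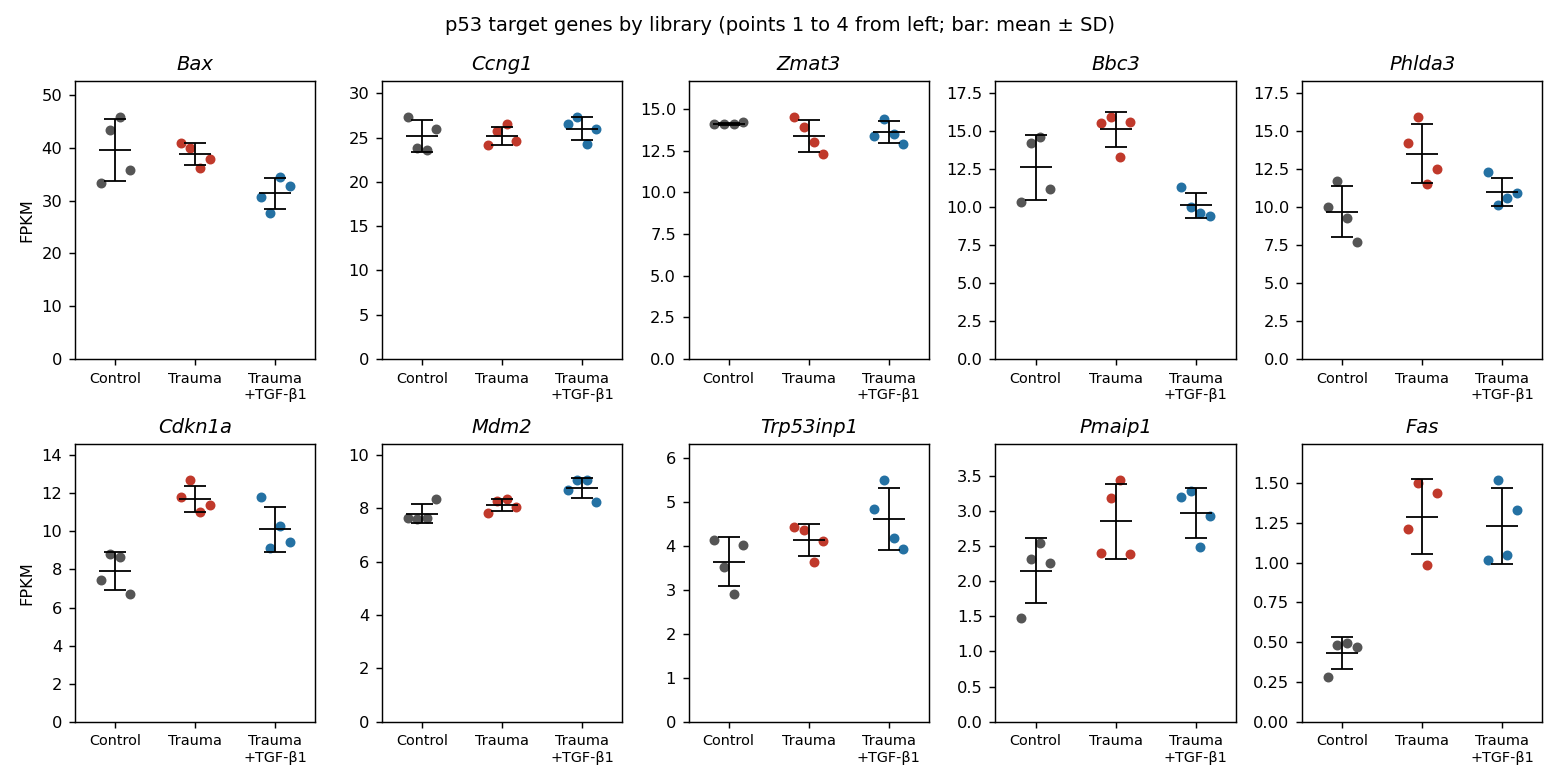
FPKM (vertical axes, from 0) of the 10 p53 target genes, ordered by their mean, in the 4 libraries of Control, Trauma and Trauma+TGF-β1 (points, numbered 1 to 4 from the left, with bars for mean ± SD). Fas and Cdkn1a lay above Control in all 8 injured libraries, Bbc3 and Bax lay lowest in Trauma+TGF-β1, and Ccng1, Zmat3 and Mdm2 stayed within a narrow band.

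Injured neurons were set against uninjured ones first, to see which p53 targets differed 24 h after the scratch. In the limma fit across all genes, 3 of the 10 were called at an adjusted p of at most 0.05 (Fas, Cdkn1a and Phlda3), all of them higher in Trauma, where 6.00% of all genes tested were called, 3.30% as higher and 2.70% as lower. The libraries of the 2 groups did not overlap for Fas and Cdkn1a, as for 12.9% of all genes. Nothing is read from the counts and calls of the 10 genes, here and in the comparisons below, since the genes were chosen with these comparisons known. The median log2 fold change of the 10 was 0.231, beside −0.0118 for all genes tested.

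Fas (ENSMUSG00000024778, chromosome 19 of GRCm38, plus strand, 34290666 to 34327772) encodes the receptor that starts the extrinsic death pathway when bound by Fas ligand. It had 0.284, 0.485, 0.494 and 0.472 FPKM in the 4 Control libraries. In Trauma it had 1.21, 1.50, 0.988 and 1.44 FPKM. Every Trauma library lay above every Control library, and the first Control library was the lowest of all. The level rested on few reads, 9 to 17 in the Control libraries and 36 to 54 in the Trauma libraries. On the scale of log2(FPKM + 0.1), the difference was 1.38 (standard error 0.208, 95% interval 0.930 to 1.83), or 2.61-fold. A larger added constant shrinks the change of a gene this low: it was 0.67 with 1 added and 1.56 with 0.01.

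Cdkn1a (ENSMUSG00000023067, chromosome 17, plus strand, 29090976 to 29100727) encodes p21, the inhibitor of cyclin-dependent kinases through which p53 stops the cell cycle. Its Control libraries stood at 7.43, 8.82, 8.65 and 6.72 FPKM. The Trauma libraries stood at 11.8, 12.7, 11.0 and 11.4 FPKM, all above Control. The log2 fold change was 0.57 (standard error 0.0974, 95% interval 0.357 to 0.781), or 1.48-fold. This is the gene with the pair of half-sites shown above. A gene on the opposite strand, 1700023B13Rik, overlaps it, with at most 10 reads in a library.

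Phlda3 (ENSMUSG00000041801, chromosome 1, plus strand, 135766119 to 135769136) encodes a small pleckstrin homology domain protein that restrains the kinase Akt. It had 10.0, 11.7, 9.30 and 7.70 FPKM in Control and 14.2, 15.9, 11.5 and 12.5 in Trauma. The groups overlapped, because the second Control library was above the third Trauma library. The log2 fold change was 0.48 (standard error 0.125, 95% interval 0.209 to 0.755), and the gene was called in the fits that left out Control 2, Trauma 3 or Trauma+TGF-β1 1, but not in the 9 that each left out another library, nor with no filter or with Control and Trauma alone.

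The other genes of the death arm differed less. Pmaip1 (ENSMUSG00000024521, chromosome 18, plus strand, 66458533 to 66465565) ran from 1.47 to 2.54 FPKM in Control and from 2.39 to 3.44 in Trauma, a log2 fold change of 0.40 (standard error 0.172). Bbc3 (ENSMUSG00000002083, chromosome 7, plus strand, 16308393 to 16318205) had 10.3, 14.2, 14.6 and 11.2 FPKM in Control and 15.5, 15.9, 13.3 and 15.6 in Trauma. Its groups overlapped, and the log2 fold change was 0.27 (standard error 0.108, 95% interval 0.0335 to 0.506). After a correction for GC content, described below, the change was again 0.27 with a standard error of 0.0698, and the gene was then called. Bax (ENSMUSG00000003873, chromosome 7, minus strand, 45461697 to 45466898), the pore-forming protein through which the mitochondrial pathway kills, had 33.4, 43.3, 45.8 and 35.8 FPKM in Control and 41.0, 40.0, 36.2 and 37.9 in Trauma. Its log2 fold change was −0.018 (standard error 0.0978), with the Trauma libraries inside the range of the Control libraries.

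Some of the best known feedback targets of p53 lay close to their Control level. Mdm2 (ENSMUSG00000020184, chromosome 10, minus strand, 117688875 to 117710758), which both answers to p53 and degrades it, ran from 7.60 to 8.35 FPKM in Control and from 7.83 to 8.35 in Trauma, a log2 fold change of 0.059 with a 95% interval of −0.0479 to 0.165. Ccng1 (ENSMUSG00000020326, chromosome 11, minus strand, 40748552 to 40755311), the gene of cyclin G1, ran from 23.6 to 27.3 and from 24.2 to 26.5 FPKM, with a log2 fold change of 0.0045 and an interval of −0.115 to 0.124. Zmat3 (ENSMUSG00000027663, chromosome 3, minus strand, 32334792 to 32366014), an RNA-binding zinc finger protein, had 14.1 to 14.2 FPKM in Control and 12.3 to 14.5 in Trauma, a log2 fold change of −0.076 with an interval of −0.191 to 0.0379. Trp53inp1 (ENSMUSG00000028211, chromosome 4, plus strand, 11156431 to 11174379), a nuclear protein induced by stress, ran from 2.90 to 4.14 and from 3.64 to 4.43 FPKM, a log2 fold change of 0.19 (standard error 0.126). Mdm2, Ccng1 and Zmat3 were measured on at least 596 reads in every library.

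**Figure D2:**
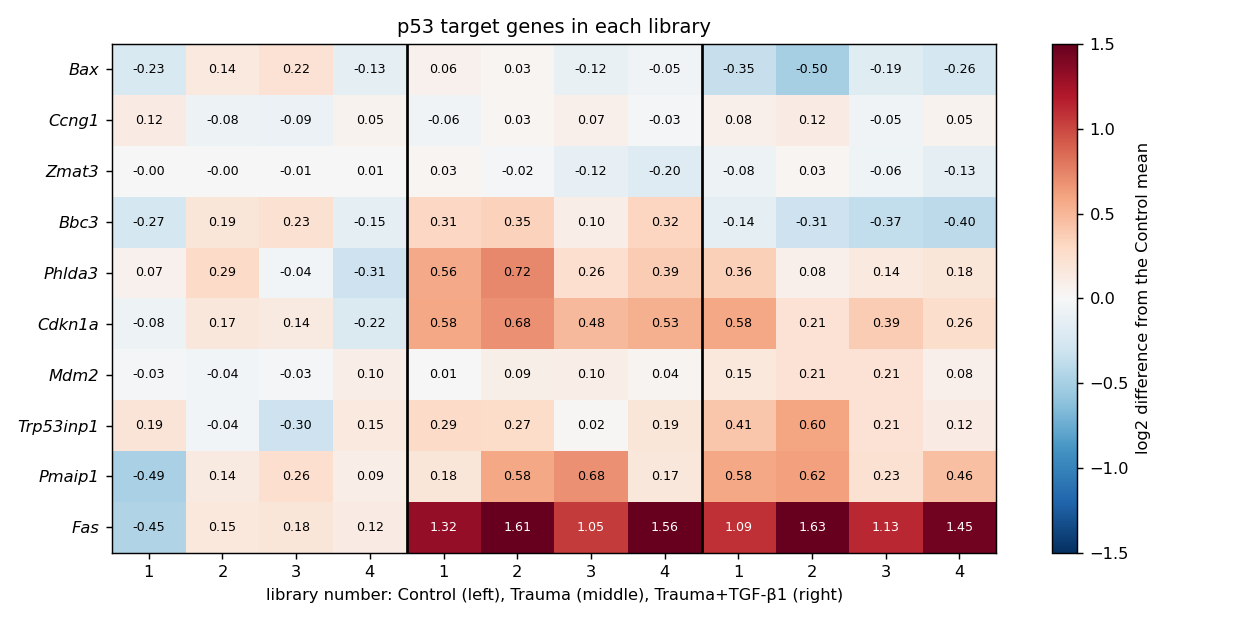
Log2 difference from the Control mean (color and printed value) for each p53 target gene (rows, ordered by mean FPKM) in each of the 12 libraries (columns). Fas reached 1.05 to 1.63 in the 8 injured libraries, while Mdm2, Ccng1 and Zmat3 stayed between −0.20 and 0.21 in all 12.

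Injured neurons with and without TGF-β1 were compared next. In this comparison, which was known when Bbc3 was chosen, 1 of the 10 genes was called, Bbc3, which was lower with TGF-β1, where 12.1% of all genes tested were called, 7.71% as lower and 4.40% as higher. The libraries did not overlap for Bbc3 and Bax, as for 22.2% of all genes. The median log2 fold change of the 10 was −0.0221, beside 0.00251 for all genes.

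Bbc3 encodes PUMA, a BH3-only protein that binds and neutralizes the anti-apoptotic members of the Bcl2 family. Its Trauma+TGF-β1 libraries had 11.3, 10.0, 9.63 and 9.44 FPKM, all below the 13.3 to 15.9 FPKM of the Trauma libraries. Only the first of them lay within the Control range of 10.3 to 14.6 FPKM, and the others lay below it. The log2 fold change against Trauma was −0.58 (standard error 0.108, 95% interval −0.811 to −0.339), on 321 to 365 reads with TGF-β1 and 501 to 590 without. Bax moved in the same direction, with 30.7, 27.7, 34.5 and 32.7 FPKM, below every Trauma library. Its log2 fold change was −0.31 (standard error 0.0978, 95% interval −0.521 to −0.0941), which was called with Trauma and Trauma+TGF-β1 alone, with voom, and without Control 1 or Control 3.

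The base composition of transcripts moved with these values. Across 14699 genes, which are not independent, the log2 fold change of this comparison fell with GC content (Spearman rho = −0.465), and the longest transcripts of Bbc3, Bax and Phlda3 had 65.2%, 63.5% and 62.6% GC, against a median of 49.6% for the genes tested. After a loess correction of each library for GC content, the log2 fold change was −0.26 for Bbc3, −0.044 for Bax and −0.056 for Phlda3, where it had been −0.29 (standard error 0.125) before. Bbc3 was still called with this correction, but not when the replicate number was also a block in the fit. Whether base composition made part of the difference was not tested.

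Fas was not separated by TGF-β1. The 4 libraries had 1.02, 1.52, 1.05 and 1.33 FPKM, which lie among the Trauma libraries, and the log2 fold change of −0.059 had a 95% interval of −0.511 to 0.393, wide enough to hold a sizeable change either way. Cdkn1a had 11.8, 9.11, 10.3 and 9.42 FPKM, which overlapped with Trauma through the first library, a log2 fold change of −0.21 (standard error 0.0974, 95% interval −0.424 to 0.00104). Phlda3 had 12.3, 10.1, 10.6 and 10.9 FPKM and overlapped likewise. Pmaip1 (2.49 to 3.28 FPKM), Trp53inp1 (3.94 to 5.50), Ccng1 (24.3 to 27.3), Zmat3 (12.9 to 14.4) and Mdm2 (8.23 to 9.06) had log2 fold changes between 0.015 and 0.14, with libraries that overlapped with those of Trauma.

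**Figure D3:**
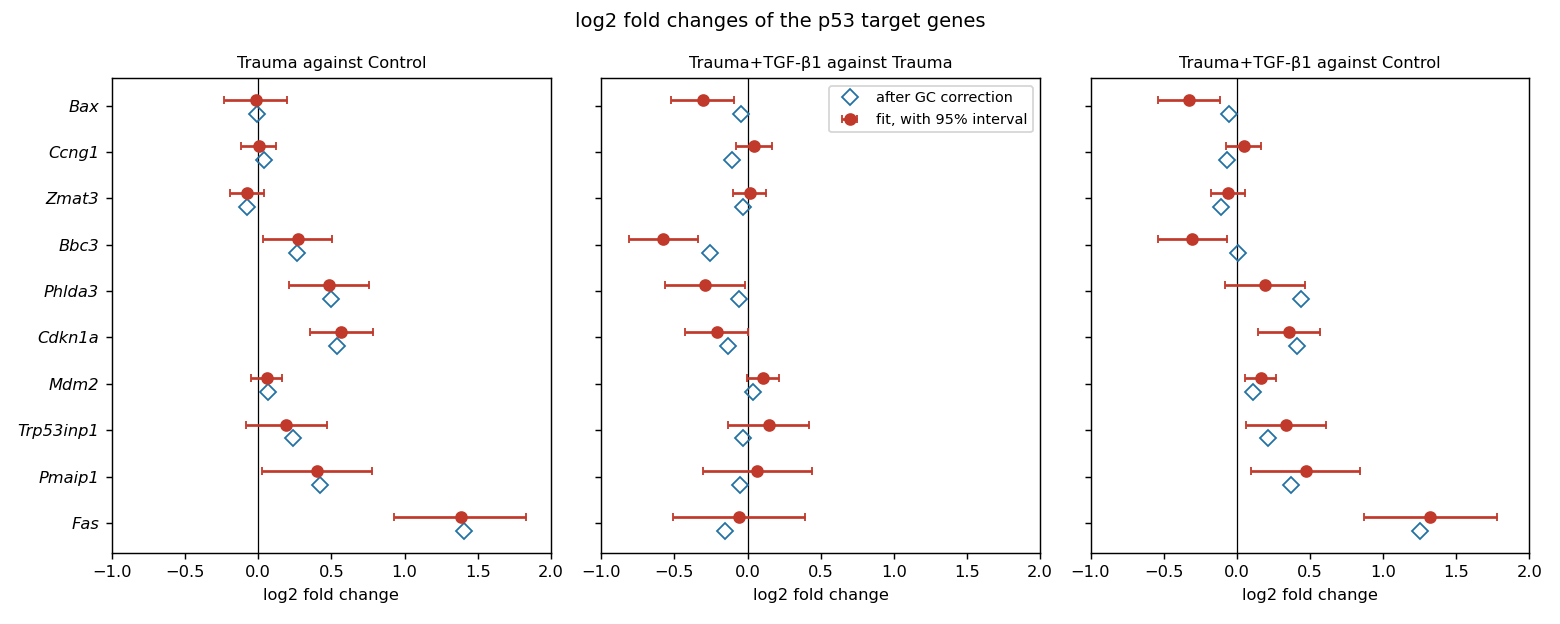
Log2 fold change (horizontal axes) of each p53 target gene in the 3 comparisons, with the 95% interval of the limma fit (filled points and bars) and the value after correction of each library for GC content (open diamonds). Between Trauma and Control both values lie close together, while with TGF-β1 the values of Bbc3, Bax and Phlda3 shift upward after the correction.

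Set against Control, the Trauma+TGF-β1 group shares the libraries of both comparisons above, so its values add no independent evidence. Here 4 of the 10 genes were called, Fas, Cdkn1a and Mdm2 as higher and Bax as lower, where 16.6% of all genes tested were called, 6.14% as higher and 10.4% as lower. The libraries did not overlap for Fas and Cdkn1a, as for 18.5% of all genes. The log2 fold change was 1.32 for Fas (standard error 0.208), 0.36 for Cdkn1a (standard error 0.0974), 0.16 for Mdm2 (standard error 0.0488) and −0.33 for Bax (standard error 0.0978). After the GC correction Bax had −0.051 and Mdm2 0.11, and neither was called. Of the 15 alternatives described below, the FPKM as deposited among them, the call held in 6 for Bax, 8 for Mdm2 and 13 for Cdkn1a. That of Fas held in all 14 in which it passed the filter. Bax lost its call with total-read scaling, quantile normalization and the gene length correction as well. The Mdm2 call held in the fits without Control 4, Trauma 1 or Trauma+TGF-β1 4 and was lost in the 9 that each left out another library, while that of Bax held in 4 of 12 (without Control 1, Control 4, Trauma 3 or Trauma+TGF-β1 3). The Cdkn1a call was lost without Control 4, Trauma+TGF-β1 1 or Trauma+TGF-β1 3. Trp53inp1 and Pmaip1 had log2 fold changes of 0.34 (standard error 0.126) and 0.47 (standard error 0.172), Phlda3 of 0.19 (standard error 0.125), which became 0.44 and was called after the GC correction, and Bbc3 of −0.31 (standard error 0.108), which was 0.0081 after the GC correction.

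The spread of the 10 genes within groups was also followed, as deviations from the group means over the 12 libraries. These correlations are descriptions, since the points share the depth and base composition of a library. Cdkn1a deviated together with Bbc3 (Pearson r = 0.794), Phlda3 (0.778) and Bax (0.646), and Bbc3 with Bax (0.688), which shows in Control, where the first and last libraries were low for Cdkn1a, Bbc3 and Bax alike. Ccng1 deviated opposite to Bax (r = −0.913). After the GC correction the pair of Bbc3 and Bax had r = 0.018, Cdkn1a and Bbc3 0.547, Cdkn1a and Phlda3 0.56, and Ccng1 and Bax −0.6. Fas had r = −0.019 with Cdkn1a and 0.515 with Bbc3. Over all 45 pairs the median was 0.077, with 27 pairs above 0, and after the GC correction it was 0.176, with 31 above 0.

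The genes most like Fas over the 12 libraries, group differences included, were Ccdc40 (r = 0.963), Prnp (0.957) and Bmpr1b (0.953) among 12798 genes with a mean of at least 1 FPKM. Prnp, the prion protein gene, had 106 ± 4.20, 127 ± 6.54 and 130 ± 5.12 FPKM in Control, Trauma and Trauma+TGF-β1. Those most like Bbc3 were Mrpl57 (r = 0.969), Eif5a (0.963) and Itm2c (0.962), of which Eif5a had 168 ± 10.9, 178 ± 3.86 and 146 ± 5.71 FPKM. Within the 10 genes described here, Fas was closest to Cdkn1a (r = 0.771) and Bbc3 to Bax (0.786). Fas and Bbc3 had r = 0.097 with each other.

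The Fas pathway beyond the receptor was followed through a list of partners. Fasl, the ligand, had 0 to 10 reads in any library, and Casp8, the initiator caspase, had 1 to 20, so both were under the filter and left out of the test. Faim2, an inhibitor of Fas-induced death in neurons, fell in Trauma from 11.4 ± 0.345 to 10.1 ± 0.304 FPKM, a log2 difference of −0.18 with a standard error of 0.0448 (limma adjusted p = 0.0391). With TGF-β1 it was again below Control (log2 difference −0.16, limma adjusted p = 0.0271). Both calls depended on the scaling. Between Trauma and Control Faim2 missed the threshold with total-read scaling, quantile normalization and the gene length correction (limma adjusted p = 0.112, 0.0606 and 0.133), and between Trauma+TGF-β1 and Control it did so with total-read scaling, quantile normalization and the GC correction (limma adjusted p = 0.0826, 0.110 and 0.103). None of the 8 partners tested was called between Trauma+TGF-β1 and Trauma in the limma fit, where 12.1% of all genes tested were called. At an unadjusted p of at most 0.05 there were 0 partners, beside 4391 of the 15016 genes tested. With so few partners, nothing is read from these counts.

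A further list of 40 known p53 targets, of which 39 were tested, was used to describe the rest of the program. It was chosen with earlier results of these data known, so its counts are a description. Bid stands on this list and on that of the Fas partners, and Sco2 had no reads. Between Trauma and Control 4 of them rose and none fell, 10.3% of the list, beside 6.00% of all genes tested. Its median log2 fold change was 0.0704, and 24 of the 39 had a positive value. Btg2, an antiproliferative gene that also answers to neuronal activity, rose from 1.16 ± 0.265 to 3.12 ± 1.25 FPKM, a log2 difference of 1.29 with a standard error of 0.289 (limma adjusted p = 0.0214). Ephx1, the microsomal epoxide hydrolase, rose from 14.7 ± 0.963 to 22.0 ± 1.63 FPKM, a log2 difference of 0.58 with a standard error of 0.0573 (limma adjusted p = 0.000124). Psrc1, a gene of the mitotic spindle, rose by 0.70 (limma adjusted p = 0.0382) and Ikbip by 0.47 (limma adjusted p = 0.0459) on the log2 scale, and both missed the threshold with quantile normalization (limma adjusted p = 0.0555 and 0.0663). The count was 1 without Control 3 or Trauma 4, and 2 without Control 1, Control 2, Trauma 2, Trauma 3, Trauma+TGF-β1 3 or Trauma+TGF-β1 4.

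Between Trauma+TGF-β1 and Trauma, 3 of the 39 fell and none rose, 7.69% of the list beside 12.1% of all genes tested, with a median log2 fold change of −0.0238. Ddit4, a stress gene that restrains mTOR, fell from 58.0 ± 4.61 to 39.6 ± 3.84 FPKM, a log2 difference of −0.55 with a standard error of 0.0934 (limma adjusted p = 0.00772). Ephx1 fell by 0.32 (limma adjusted p = 0.00859) and Aen, a p53-induced nuclease, by 0.26 (limma adjusted p = 0.0262) on the log2 scale. After the GC correction Ddit4 and Ephx1 were still called and Aen was not (limma adjusted p = 0.0529). The 4 libraries of a group lay fully below those of the other for these 3 genes and for no further gene of the list, while the groups did not overlap for 22.2% of all genes. Against Control, 5 of the 39 rose with TGF-β1 (Btg2, Ikbip, Gtse1, Ercc5 and Ephx1) and 4 fell (Gdf15, Ddit4, Tob1 and Aen), 23.1% of the list beside 16.6% of all genes tested, with a median of 0.0852. The largest were Gdf15, a secreted stress cytokine, from 1.75 ± 0.606 to 0.711 ± 0.0588 FPKM with a log2 difference of −1.13 (limma adjusted p = 0.0139), and Btg2, with 0.93 (limma adjusted p = 0.0469, or 0.0598 after the GC correction). The calls of Gdf15, Ddit4, Ephx1 and Ikbip held under total-read scaling, quantile normalization and the corrections for GC content and gene length, while those of Btg2, Gtse1, Ercc5, Tob1 and Aen were each lost under at least 1 of them. This count was 4 without Control 3 or Control 4, and 5 without Control 2, Trauma 1 or Trauma+TGF-β1 4.

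**Figure D4:**
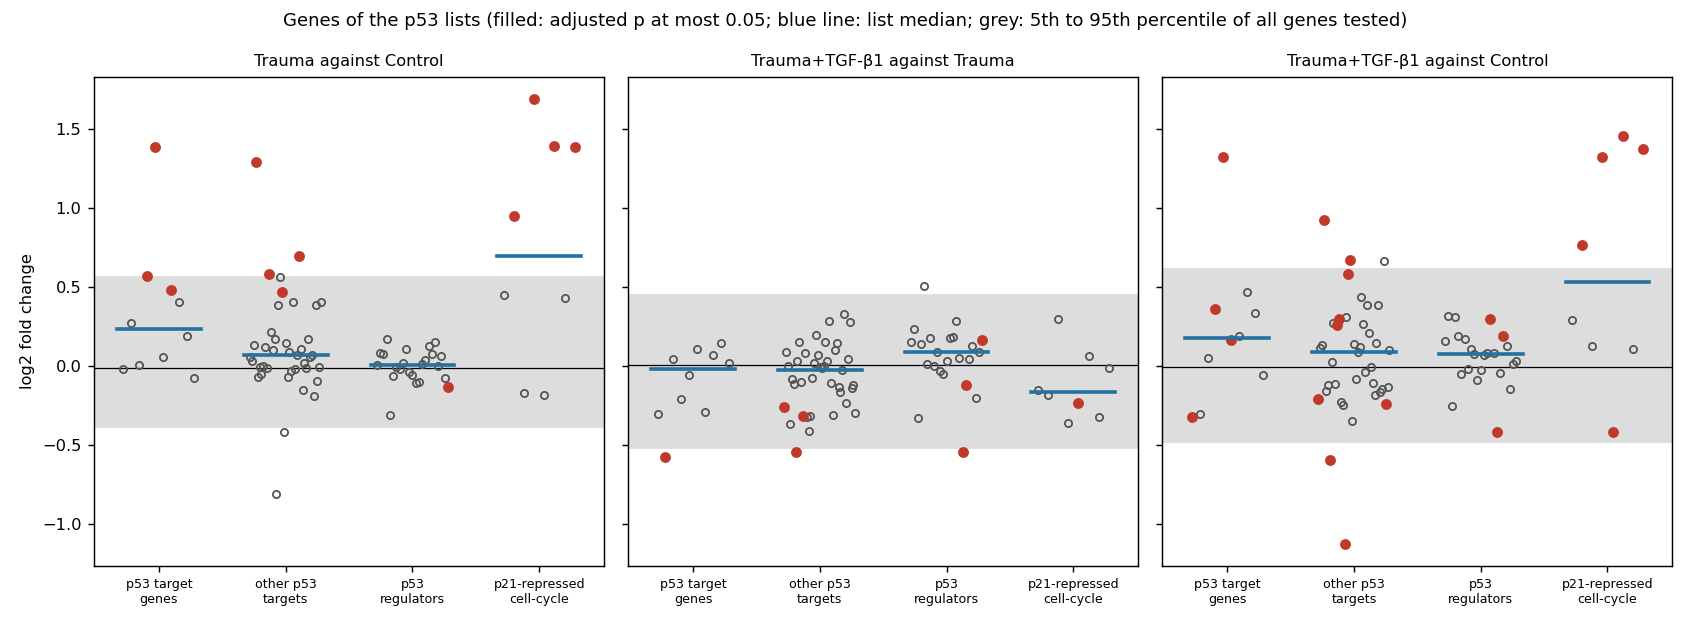
Log2 fold change (vertical axis) of each tested gene of the p53 lists in the 3 comparisons, filled where the adjusted p was at most 0.05, with the list median (blue line), the median of all genes tested (black line) and their 5th to 95th percentile (grey band). Between Trauma and Control the 10 p53 target genes had a median of 0.231 and the 39 other targets 0.0704.

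The regulators of p53 were followed in a list of 25 genes, of which 23 were tested. Trp53, the gene of p53 itself, had 5.90 ± 0.102 FPKM in the Control libraries, 6.16 ± 0.503 after the scratch and 5.32 ± 0.380 after the scratch with TGF-β1. Its log2 fold change was 0.059 between Trauma and Control (limma adjusted p = 0.699) and −0.21 between Trauma+TGF-β1 and Trauma (limma adjusted p = 0.0658), while its protein, whose stability is the main point of control, was not measured here. Mdm4, the partner of Mdm2, had 7.47 ± 0.536, 6.94 ± 0.401 and 7.88 ± 0.441 FPKM, with none of its comparisons called. In Trauma 1 regulator (4.35% of those tested, beside 6.00% of all genes) fell, the deubiquitinase gene Usp7 (log2 fold change −0.13, limma adjusted p = 0.0368), a call that was lost with total-read scaling, quantile normalization and the gene length correction (limma adjusted p = 0.164, 0.158 and 0.0654). With TGF-β1, compared with Trauma, Usp7 rose by 0.16 (limma adjusted p = 0.0136) on the log2 scale, and the ribosomal protein genes Rpl11 and Rpl5, whose products can bind Mdm2, fell by 0.55 (limma adjusted p = 0.00617) and by 0.12 (limma adjusted p = 0.0454, or 0.499 with quantile normalization and 0.0753 with the gene length correction). Against Control, Setd7 and Prkdc rose and Rpl11 fell, of which Prkdc (limma adjusted p = 0.0454) missed the threshold with the GC correction, the gene length correction and quantile normalization (limma adjusted p = 0.131, 0.111 and 0.0873). After the GC correction the change of Usp7 with TGF-β1 was 0.076 (limma adjusted p = 0.174), and with the gene length correction it also missed the threshold (limma adjusted p = 0.0594).

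Genes that p21 is known to repress through the DREAM complex were listed beside Cdkn1a. Of 12 such genes 8 passed the filter. Cdk1 and Mki67 passed it through the injured groups, so their values are given without a test: Cdk1 had 0.170 ± 0.0466 FPKM in Control and 0.766 ± 0.117 in Trauma, and Mki67 had 0.251 ± 0.0405 and 0.820 ± 0.0658. Of the other 6 genes, Top2a and Ccna2 were called as higher in Trauma, where 3.30% of all genes tested were called as higher and 2.70% as lower. Top2a, a topoisomerase of dividing cells, rose from 0.608 ± 0.0816 to 1.76 ± 0.313 FPKM, a log2 difference of 1.39 with a standard error of 0.147 (limma adjusted p = 0.000211), and Ccna2, the gene of cyclin A2, by 0.95 (limma adjusted p = 0.00625) on the log2 scale. Plk1, Aurka, Ccnb2 and E2f1 were not called, and their log2 fold changes were 0.43, 0.45, −0.17 and −0.18 (limma adjusted p = 0.271, 0.399, 0.664 and 0.0950), with every Trauma library below Control for E2f1. Of these 6 genes, Ccnb2 and E2f1 thus had negative values and the rest positive ones. The genes under the filter rested on 4 to 54 reads in a library. In Control and Trauma, Ccnb1 had 0.153 to 0.508 and 0.447 to 0.56 FPKM, and Cdc25c 0.0478 to 0.103 and 0.0741 to 0.149. Birc5 had 0.318 to 0.42 and 0.438 to 0.549 FPKM, and Bub1 0.073 to 0.209 and 0.363 to 0.546. With TGF-β1 against Control, Top2a and Ccna2 rose by 1.37 (limma adjusted p = 0.000167) and 0.77 (limma adjusted p = 0.00985) on the log2 scale while E2f1 fell by 0.42 (limma adjusted p = 0.000855). In that comparison 16.6% of all genes tested were called. Between Trauma+TGF-β1 and Trauma E2f1 alone was called (−0.24, limma adjusted p = 0.0238, or 0.265 after the GC correction), where 12.1% of all genes tested were called. The summed astrocyte, microglia and oligodendrocyte lineage markers given above were higher in every Trauma library than in any Control library, though single markers overlapped, and the part of glial or dividing cells in the levels of Fas, Cdkn1a and Phlda3 was not tested.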

How the data were processed

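Paired-end reads of 12 libraries had been aligned by the authors with HISAT2 2.0.5 to mm10 (GRCm38), assembled with StringTie and counted per gene with featureCounts, and the deposited table gives FPKM beside a length for each gene, in bases. The deposited FPKM times length gave whole reads for 100% of the nonzero values (within 0.05 read), and the divisor of each library equalled its median-of-ratios factor. The values were thus already scaled between libraries, and rescaling left them as deposited. The log2 of FPKM + 0.1 for genes with a mean of at least 0.5 FPKM was fitted with limma 3.58.1 in R 4.3.3 (1 fit of the 3 groups, no block, eBayes with a trend), with Benjamini-Hochberg adjustment over all genes tested and a gene was called where that p was 0.05 or less. The procedure was tested on simulated counts, drawn without any trend of GC content or gene length. That test therefore says nothing of the GC relation seen in these data. The authors' own test, DESeq2 on counts, was not run. Whether counting used the strand is not given in the sources used here, so overlapping genes cannot be told apart.

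The 10 genes and all lists were chosen with earlier results of these data known. Named genes were the 10, up to 5 called genes of a list in each comparison, Trp53, Mdm4, Fasl, the 3 genes most correlated with Fas and with Bbc3, and the leading marker. Aurka, Bid, Birc5, Bub1, Casp8, Ccnb1, Ccnb2, Cdc25c, Gfap, Plk1, Sco2, Trp63 and Trp73 are named outside this rule, chosen after their values were seen. GC content was that of the longest GENCODE M21 transcript, known for 14699 genes. Alternatives were other scalings (quantile, total reads), pseudocounts of 1 and 0.01, no filter or 1 FPKM, the 2 groups compared alone, a robust variance estimate, a block for the replicate number, loess corrections (span 0.3) for gene length or GC content with and without that block, voom on recovered reads, and each library left out. The FPKM as deposited were also run as an alternative, although they equal the values of the main fit. Scaling by total reads was added after the values were seen. Other software was matplotlib 3.10.9, numpy 2.4.6, pandas 2.3.3 and Python 3.11.15. Protein measurements and RT-PCR were not analysed here, and 1 gene is not reported here.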

Additional observations from a re-analysis of the deposited data

Results flagged for a closer look

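Among the 30 sets of 4 libraries (10 genes in 3 groups), 2 held a library far from the other 3 by Dixon's ratio of gap to range at the 95% level, where chance flags about 1 in 20. Fas had 0.284 FPKM (9 reads) in the first Control library and 0.472 to 0.494 in the others, and without that library its log2 fold change between Trauma and Control was 1.23. Mdm2 had 8.35 FPKM (654 reads) in the last Control library and 7.60 to 7.65 in the others.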

How the results depend on the processing

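Of 135 counts of called genes recomputed under 15 alternatives, 114 stayed within 1.5 times the value reported. Of 807 recomputed fold changes of the 10 genes, 22 differed from the reported value by at least the standard deviation within groups. A change of sign was counted only for genes called in the reported fit, and none of those changed sign. Genes not called did change sign, such as Zmat3 between Trauma+TGF-β1 and Trauma in 4 of 15 alternatives. Both totals include the FPKM as deposited, which repeat the reported fit and so could not differ from it. The cause of the differences was not tested. For Trauma against Control, all genes called were 575 with no filter and 518 with the 2 groups alone, and the other p53 targets called were 2 with quantile normalization, the 2 groups alone, the replicate block, or that block with the gene length correction, and 1 with no filter. For Trauma+TGF-β1 against Trauma, all genes called were 987 with no filter, 882 with the GC correction, 752 with that and the replicate block, and 886 with the length correction and the replicate block. There, the p53 target genes called were 2 with the 2 groups alone or voom (Bbc3 and Bax) and 0 with the GC correction and the replicate block. For Trauma+TGF-β1 against Control, all genes called were 1601 with the 2 groups alone. The p53 target genes called were 1 with no filter or the 2 groups alone and 2 with the replicate block, with or without the length correction, and the other p53 targets called were 5 with quantile normalization and 4 with no filter.

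With each library left out, all genes called ran from 489 to 875 for Trauma against Control, from 651 to 2539 for Trauma+TGF-β1 against Trauma and from 1488 to 3389 for Trauma+TGF-β1 against Control. The counts moved by over 1.5 times without Trauma 2, 3 or 4 in the first comparison, without Trauma 1, 2 or 4 or Trauma+TGF-β1 2 or 4 in the second, and without Control 2 or 3 or Trauma+TGF-β1 2 in the third. In the same order, the p53 target genes called ran from 2 to 3, from 1 to 2 and from 1 to 4, and the other p53 targets called from 1 to 4, from 2 to 4 and from 4 to 10. Against Control, the p53 target genes called were 1 without Trauma+TGF-β1 1, and 2 without Control 2, Control 3, Trauma 2, Trauma 4, Trauma+TGF-β1 2 or Trauma+TGF-β1 3. Bax was the second gene called with TGF-β1 against Trauma, without Control 1 or Control 3. Scaling also moved the split between directions: 655 genes were higher and 223 lower in Trauma with total reads (496 and 405 as reported), 1125 and 927 with TGF-β1 against Trauma with quantile normalization (661 and 1158), and 1339 and 1095 against Control with total reads or 1134 and 918 with quantile normalization (922 and 1565). Same-numbered libraries did not deviate together (r between −0.00877 and 0.0762), so the numbers were not taken as pairs. With the replicate block, all genes called were 786, 1517 and 2267. Few reads limit Fas, at 9 to 54 per library.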

Other observations

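Of the relatives of p53, Trp63 had at most 6 reads in any of the 12 libraries. Trp73 had 18 to 38 reads, and both were under the filter on FPKM.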
